A study of Mus musculus with 12 samples.

Results

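The transcripts of TFIIH and TFIID, 2 of the general transcription factors that bring RNA polymerase II to promoters, were followed through an RNA immunoprecipitation of the deadenylase CNOT6L from mouse hepatocytes. The set holds 10 genes: Cdk7, Ccnh, Mnat1, Gtf2h1, Ercc2 and Ercc3 of TFIIH, and Taf5, Taf6, Taf10 and Taf12 of TFIID. Of these, 9 had a probe set among the 15780 named genes of the table, and Taf10 was not analysed here. All 9 passed the filter on low values (a mean over the 12 arrays of at least 5.57 on the log2 scale), which kept 9496 genes. The set was chosen from earlier results of these same arrays, in which Cdk7 stood out in the wild-type against knockout comparison of enrichment and Taf5 in wild-type IP against wild-type input. The comparisons that contain the wild-type IP are therefore given for the 9 genes as descriptions, without p-values, and where a count of them past a threshold is printed there, it restates that choice and nothing is read from it.

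Hepatocytes were prepared from male mice of the strain C57BL/6J, aged 8 weeks, that were either wild type (WT) or knocked out for Cnot6l (KO). Each preparation was split, and one portion gave the input RNA and the other the RNA that came down with an anti-CNOT6L antibody (IP). The KO served as the negative control, and each of the 4 groups, WT input, WT IP, KO input and KO IP, had 3 Affymetrix arrays, numbered 1 to 3. The labels call the replicates biological and do not otherwise say whether each came from its own animal. The p-values therefore cannot be read as measuring a spread between animals. In the main fit they rest on the spread of arrays within groups, and the input and IP of a preparation count there as independent. A second fit, described below, pairs them. The sources used here do not describe how the knockout allele was made, and no further agent is named for any group.

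TFIID, made of the TATA-binding protein and a set of TBP-associated factors (TAFs), recognises the core promoter and starts assembly of the preinitiation complex. TFIIH joins last. Its XPB subunit drives opening of the promoter DNA, its XPD helicase serves repair, and its kinase module, CDK7 with cyclin H and MAT1, phosphorylates the tail of RNA polymerase II and, as the CDK-activating kinase, also the cell cycle CDKs. The core of TFIIH serves nucleotide excision repair as well. CNOT6L belongs to the CCR4-NOT complex, which shortens poly(A) tails, so the precipitate records which mRNAs were recovered with that complex or with the antibody and beads alone.

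The preparations carried hepatocyte transcripts at high levels: Alb averaged 14.54 to 14.88 in WT IP and WT input and 14.48 to 14.87 in KO IP and KO input. All 5 hepatocyte markers with a probe set passed the filter. Of the 7 Kupffer cell and macrophage markers 2 did, of the 6 endothelial markers 2, of the 6 stellate cell markers 3, of the 4 cholangiocyte markers 2 and of the 2 lymphoid markers 1. The mean Kupffer cell marker level per array was 5.47 to 5.72 in WT input, 5.76 to 5.93 in WT IP, 5.37 to 5.73 in KO input and 5.68 to 5.89 in KO IP. Its highest member, Cd68, averaged 11.77, 10.61, 11.89 and 10.87 in these groups, so it was lower in both precipitates. Every other marker of that list was higher in both precipitates than in their inputs. Of these only Csf1r passed the filter, with 5.83, 6.07, 5.59 and 6.01. Adgre1, below the filter, had 4.63, 5.62, 4.78 and 5.69. Low values were higher in the IP arrays in general: their 10th percentile was 3.77 to 4.26, against 3.42 to 3.53 in the input arrays. Values spread less within an IP array (SD 2.19 to 2.42) than within an input array (SD 2.53 to 2.61), and for Gapdh the excess of 3′ over 5′ signal was larger in the IP by 0.85 to 1.95 log2 units in WT and by 0.85 to 1.66 in KO. For beta-actin it was larger by 1.38 to 1.91 and 1.38 to 1.62. The mean of the poly-A control probe sets was higher in the IP by 4.01 to 5.27 in WT and by 4.27 to 5.41 in KO. The part of these differences between IP and input in the results was not tested. In bulk RNA, fewer cells of a type and less RNA per cell cannot be told apart, and array values give the relative level of a transcript in its RNA sample, not the amount recovered.

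The kinase subunit of TFIIH, Cdk7, was the member with the clearest separation. Its log2 levels were 10.12, 9.87 and 9.39 in WT input and 11.89, 11.17 and 11.74 in WT IP. In the negative control they were 10.31, 9.99 and 9.82 in KO input and 9.41, 9.66 and 9.57 in KO IP. The 3 WT IP arrays thus lay above the other 9, while the KO IP arrays lay below all 3 of their inputs. The group levels were 11.60 ± 0.38 (SD, n = 3) in WT IP, 10.04 ± 0.25 in KO input, 9.79 ± 0.37 in WT input and 9.55 ± 0.13 in KO IP, and of these the 2 inputs overlapped, as did WT input and KO IP.

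Over its own input, Cdk7 differed by 1.81 ± 0.30 log2 units in WT (moderated SE, 3.51-fold), and by -0.49 ± 0.30 in KO (95% interval -1.14 to 0.16). These SEs come from the fit that does not pair each IP with its input. The 3 preparations gave 1.77, 1.30 and 2.36 in WT, and -0.90, -0.33 and -0.25 in KO. Every WT preparation therefore had more Cdk7 signal in the IP than in the input, and every KO preparation had less. All genes tested had a median of -0.21 in KO, and after quantile normalization that of Cdk7 was -0.25. The difference between these differences, called specific enrichment here, was 2.30 ± 0.42, with same-number values of 2.67, 1.63 and 2.60. Between the precipitates, WT exceeded KO by 2.06 ± 0.30 (4.16-fold).

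The promoter of Cdk7 is shown with that of Taf5, the member described next, because these 2 transcripts had all 3 WT IP arrays above the other 9 and because TFIID and TFIIH act on this stretch of a gene. The sequences are the 250 bases before the annotated start, 5′ to 3′ on the gene's own strand, from RefSeq (GRCm38.p6), chr13:100730943-100731192 (minus strand) for Cdk7 and chr19:47067498-47067747 (plus strand) for Taf5. Capitals mark GGAAGT or its reverse complement ACTTCC, the only form of the ETS core motif that was searched. Other stretches with GGAA or TTCC occur in the Cdk7 sequence and were not marked or counted.
Cdk7: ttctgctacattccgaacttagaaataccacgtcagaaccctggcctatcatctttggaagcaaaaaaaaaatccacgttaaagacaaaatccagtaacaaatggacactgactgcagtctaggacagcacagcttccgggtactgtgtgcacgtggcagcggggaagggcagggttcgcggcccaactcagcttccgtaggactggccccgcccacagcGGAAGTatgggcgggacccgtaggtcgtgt
Taf5: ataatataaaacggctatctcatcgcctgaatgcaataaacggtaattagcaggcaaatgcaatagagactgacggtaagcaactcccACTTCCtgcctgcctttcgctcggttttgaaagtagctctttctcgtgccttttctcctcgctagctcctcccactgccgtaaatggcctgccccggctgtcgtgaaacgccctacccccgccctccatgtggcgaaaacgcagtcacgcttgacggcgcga

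The ETS match of Cdk7 covers bases 25 to 30 before its start and that of Taf5 bases 157 to 162, and neither overlaps another motif searched. An entry existed for 7 members (not for Ccnh and Ercc3), and Cdk7 and Taf5 were the 2 with this exact form. Of all 32851 promoter entries, 19.7% hold it in the same window on either strand. Looser forms of the ETS core were not searched in any member. The letters of the TATA box (TATAAA) were found in Taf5 and in 1 of the 2 Taf6 entries (12.4% of all entries). In Taf5 they lie among the first letters of the printed stretch, at its end farthest from the start. The GC box (GGGCGG) was found in Cdk7, Taf5, Gtf2h1 and Ercc2 (32.7%) and CCAAT in Ercc2 (33.8%). The GC box matches of Cdk7 and Taf5 and the TATA letters of Taf5 are not marked in the printed stretches. Each was searched on both strands. These are matches of letters, and the arrays measured RNA, not promoter activity.

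The TFIID subunit gene Taf5, whose WD40-repeat protein is part of the scaffold of TFIID, had the largest difference in the set. Its log2 levels were 5.85, 6.48 and 7.02 in WT input and 8.18, 9.83 and 9.92 in WT IP. In KO they were 6.30, 6.48 and 7.02 in the input and 7.46, 7.27 and 7.15 in the IP. As with Cdk7, the 3 WT IP arrays lay above all others, but array 1 of WT IP was more than 1 log2 unit below the other 2. The KO IP arrays also lay above all 3 KO inputs, though in preparation 3 by only 0.13, and this difference did not pass the test in KO.

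Taf5 exceeded its input by 2.86 ± 0.46 log2 units in WT (SE, 7.25-fold), with 2.33, 3.35 and 2.90 in the 3 preparations. In KO the difference was 0.69 ± 0.46 (95% interval -0.32 to 1.70), with 1.16, 0.79 and 0.13. Between the precipitates, WT exceeded KO by 2.02 ± 0.46 (4.05-fold), but the same-number values were uneven, at 0.72, 2.56 and 2.77. Specific enrichment was 2.16 ± 0.65, with 1.17, 2.56 and 2.76. The value thus came mostly from preparations 2 and 3. The mean of Taf5 in WT input, 6.45 ± 0.59 (SD, n = 3), lay closer to the filter of 5.57 than that of any other member.

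**Figure D1:**
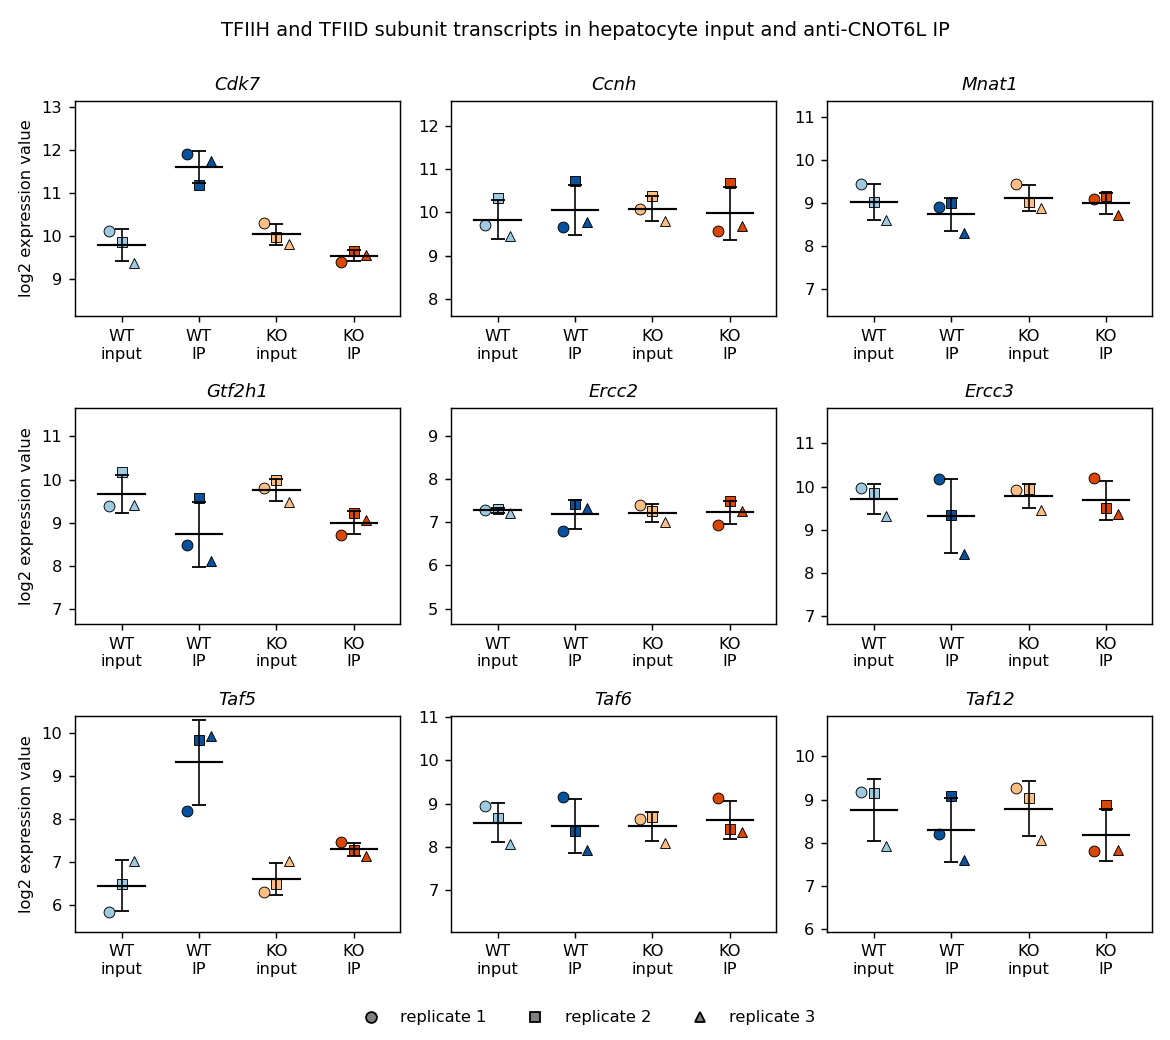
Log2 expression values of the 9 genes in each array, by group, with replicate numbers as symbols; horizontal lines are group means and bars are SDs over the 3 arrays, and each panel spans 5 log2 units. The WT IP arrays stand apart for Cdk7 (11.17 to 11.89) and Taf5 (8.18 to 9.92) and overlap the other groups for the remaining 7.

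Neither partner of Cdk7 in the kinase module followed it. Ccnh, which encodes cyclin H, the regulatory subunit of the kinase, had 9.71, 10.34 and 9.45 in WT input and 9.66, 10.72 and 9.78 in WT IP. In KO it had 10.08, 10.39 and 9.80 in the input and 9.57, 10.68 and 9.68 in the IP. All 4 groups overlapped, and preparation 2 was the highest in each of them. Specific enrichment of Ccnh was 0.34 ± 0.57 (95% interval -0.90 to 1.58).

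Mnat1 encodes MAT1, which assembles the module and tethers it to the TFIIH core. It had 9.44, 9.03 and 8.61 in WT input and 8.91, 9.01 and 8.30 in WT IP, and 9.45, 9.02 and 8.88 in KO input and 9.09, 9.17 and 8.72 in KO IP. Its groups overlapped too. Its same-number specific enrichments were -0.17, -0.17 and -0.15, so the 3 numbers gave nearly the same value. Their mean was -0.16 ± 0.45, and the SE was 0.29 in the fit that pairs each IP with its input. Over the 12 arrays the Pearson correlation of Cdk7 was 0.08 with Ccnh and -0.26 with Mnat1, as a description of arrays that share preparations.

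Of the TFIIH core, Gtf2h1, which encodes the p62 subunit, had lower values in both precipitates, a difference that did not pass the test in KO. It had 9.40, 10.18 and 9.41 in WT input and 8.49, 9.57 and 8.12 in WT IP. In KO it had 9.81, 10.00 and 9.49 in the input and 8.71, 9.23 and 9.07 in the IP. The difference was -0.94 ± 0.39 in WT (-0.91, -0.61 and -1.29 by preparation) and -0.76 ± 0.39 in KO (-1.10, -0.77 and -0.42). All 6 preparations went the same way, the WT groups overlapped and the KO groups did not, and specific enrichment was -0.18 ± 0.55.

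The helicase genes showed no such shift. Ercc2 (XPD) lay between 6.80 and 7.49 over all 12 arrays, with differences of -0.09 ± 0.27 in WT and 0.01 ± 0.27 in KO. Ercc3 (XPB) had 9.97, 9.86 and 9.31 in WT input and 10.17, 9.34 and 8.44 in WT IP. In KO it had 9.92, 9.95 and 9.46 in the input and 10.19, 9.50 and 9.36 in the IP. Its groups overlapped, and its difference was -0.40 ± 0.42 in WT and -0.09 ± 0.42 in KO.

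The other TFIID members did not follow Taf5. Taf6, a histone-fold TAF, had 8.94, 8.67 and 8.07 in WT input and 9.15, 8.38 and 7.92 in WT IP, and 8.64, 8.70 and 8.09 in KO input and 9.13, 8.40 and 8.35 in KO IP. Taf12, another histone-fold TAF that also belongs to the SAGA coactivator, had 9.18, 9.16 and 7.92 in WT input and 8.19, 9.09 and 7.60 in WT IP. In KO, Taf12 had 9.27, 9.03 and 8.07 in the input and 7.82, 8.88 and 7.84 in the IP. All 4 groups overlapped for both genes, and specific enrichment was -0.23 ± 0.55 for Taf6 and 0.15 ± 0.72 for Taf12.

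**Figure D2:**
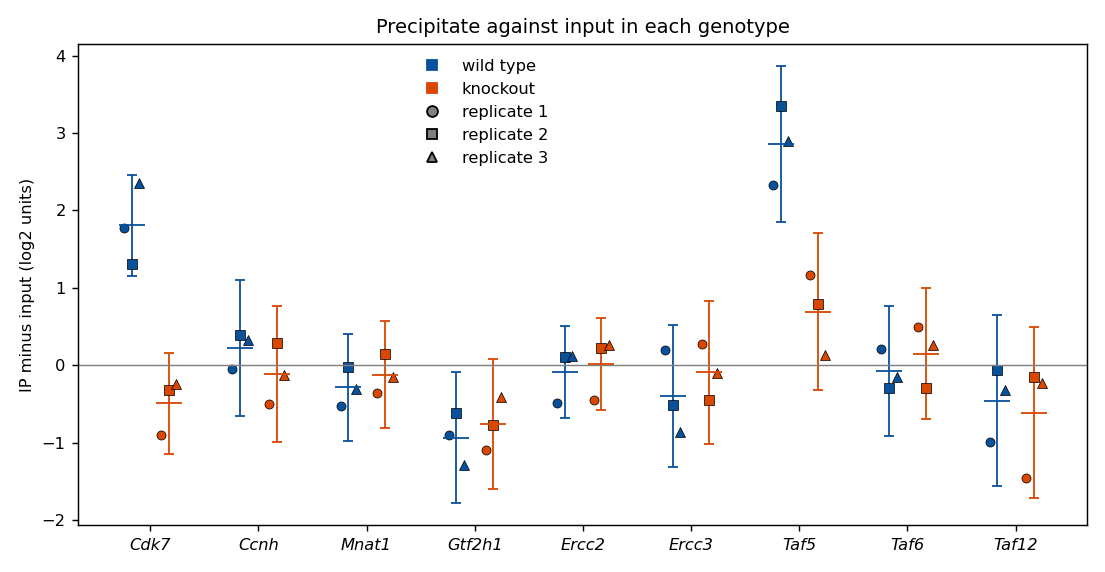
IP minus input in log2 units for each gene, in wild type (blue) and knockout (orange); symbols are the 3 preparations, horizontal marks the means and bars the 95% intervals of the fit. Cdk7 and Taf5 stand at 1.81 and 2.86 in wild type, and the remaining 7 lie between -0.94 and 0.22 there. The intervals are not corrected for the choice of Cdk7 and Taf5 from these same arrays.

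Several of these transcripts, but not Cdk7, Taf5 or Gtf2h1, varied by replicate number in a similar way in both genotypes. IP minus input of Taf12 was -0.99, -0.07 and -0.32 in WT preparations 1, 2 and 3 and -1.46, -0.15 and -0.23 in the KO ones. For Ercc2 the values were -0.49, 0.10 and 0.12 against -0.44, 0.22 and 0.26. Ercc3 ran the other way, at 0.20, -0.52 and -0.87 against 0.27, -0.45 and -0.10. Preparation 1 thus had the lowest value for Taf12 and Ercc2 and the highest for Ercc3 in both genotypes. For Ercc3 the order of preparations 2 and 3 differed between the genotypes. Numbers 1, 2 and 3 were shared by the genotypes in the labels. The deviations of array levels from their group means correlated across genes between same-number arrays (median 0.67 over 18 pairs). That value concerns levels: a deviation shared by an input and its IP cancels in IP minus input, so it does not bear on the differences above. These pairs include the input and IP of the same preparation as well as pairs across genotypes.

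The precipitates of KO ask which subunit transcripts came down without CNOT6L. A gene is called where limma gave an adjusted p (Benjamini-Hochberg) under 0.05, and 0 of the 9 were, where 0% of all genes tested were called. With the replicate block (a fit in which each IP is set against the input of its own preparation) 0 of the 9 were called, against 6.0% of all genes (570). In comparisons between genotypes, the block takes the replicate number instead. The smallest adjusted p among the 8 genes other than Cdk7 was that of Gtf2h1, at 0.501 by limma and 0.0761 with the block, and Taf5 had 0.624 and 0.143. Cdk7 is left out of these p-values because the KO arrays also enter the comparison it was chosen on. The groups did not overlap for 3 of the 9, Cdk7 and Gtf2h1 lower and Taf5 higher, beside 15.4% of all genes. The median of the 9 was -0.11, and that of all genes tested -0.21.

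Between the inputs, KO against WT, no member was called (0 of 9; 0% of all genes, with and without the block; adjusted p of 1.0 by limma for each of the 8 genes other than Cdk7). At an unadjusted p under 0.05, 0 of the 9 passed, and of the 9496 genes 3 were higher and 2 lower. The differences ran from -0.08 (Taf6) to 0.26 ± 0.40 (Ccnh), and that of Cdk7 was 0.25 ± 0.30 (95% interval -0.41 to 0.90). Cdk7 and Ccnh had higher values in KO input in 3 of 3 numbers, by 0.19, 0.12 and 0.43 and by 0.37, 0.05 and 0.35. The precision depended on the fit: the SE of Taf12 was 0.51 without the block and 0.28 with it, around a difference of 0.04. The groups did not overlap for 0 of the 9, beside 1.62% of all genes. All of these arrays also enter specific enrichment.

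In the comparisons that brought up Cdk7 and Taf5, the counts over the set are a description. In WT IP against WT input 1 of the 9, Taf5, was called, where 0.105% of all genes tested were. With the replicate block 3 were, Cdk7 and Taf5 as higher and Gtf2h1 as lower, where 7.02% of all genes were. The median of the 9 was -0.09, against -0.11 over all genes. The groups did not overlap for 2 of the 9, beside 15.3% of all genes. By size of the increase Taf5 ranked 4 and Cdk7 40 among all genes tested. The call of Taf5 was lost in 11 of the 12 fits that left out 1 array, and held only without array 1 of WT IP.

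In WT IP against KO IP 1 of the 9, Cdk7, was called as higher (0.253% of all genes), and with the block Cdk7 and Taf5 were (2.45%). The groups did not overlap for these 2, beside 6.79% of all genes. The call of Cdk7 was lost in 6 of the 12 fits that left out 1 array, those without array 1 or 3 of WT IP, array 2 of KO input or any array of KO IP. In specific enrichment 0 of the 9 were called without the block (0.0105% of all genes) and 0 with it (0.0211%), and 1, Cdk7, when the number was taken as a block shared by all groups (0.284%). At an unadjusted p under 0.05 without a block, 174 of the 9496 genes were higher and 14 lower. The median of the 9 was -0.10, against 0.05 over all genes. A pattern in which the 3 WT IP arrays lie above all 9 other arrays was seen for 2 of the 9, Cdk7 and Taf5, and for 2.40% of all genes tested.

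**Figure D3:**
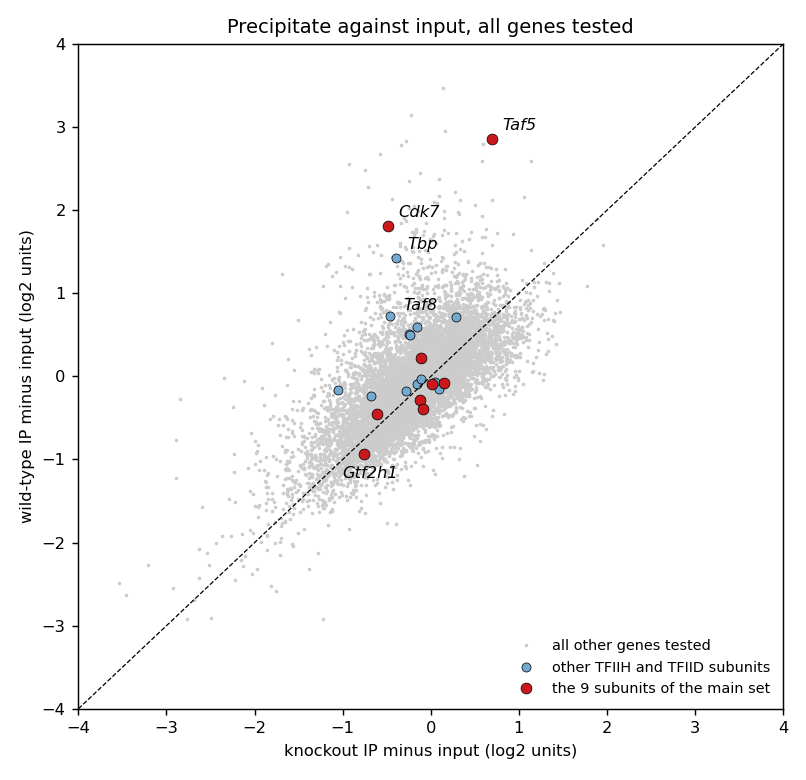
IP minus input in knockout (horizontal axis) and wild type (vertical axis), in log2 units, for the 9496 genes tested (grey), the other TFIIH and TFIID subunits (blue) and the 9 genes of the set (red); the dashed line marks equal differences. Taf5, Cdk7 and Tbp lie above the line, at 2.86, 1.81 and 1.43 in wild type, and Gtf2h1 lies near it.

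The remaining subunits of the 2 complexes were taken from a list that holds no member of the set. Of the other TFIIH subunits 3 were tested and 0 were called in any of the 5 comparisons, with or without the block. Gtf2h3 had the largest specific enrichment of them (0.90 ± 0.57, adjusted p = 1.0 by limma), with same-number values of 1.77, 0.28 and 0.64. Its IP minus input was -0.16 ± 0.40 in WT and -1.06 ± 0.40 in KO, so it was not higher in WT IP than in its input. By absolute size Gtf2h5 came next, with -0.24 ± 0.40, the lowest of the 3.

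Among the other TFIID subunits Tbp stood nearest to Taf5 and Cdk7. Tbp encodes the TATA-binding protein itself. It had 8.23, 7.90 and 7.75 in WT input and 9.05, 10.04 and 9.08 in WT IP, and 8.37, 7.84 and 7.66 in KO input and 7.48, 7.98 and 7.23 in KO IP. The WT IP arrays lay above the other 9. Tbp was higher in WT IP than in WT input by 1.43 ± 0.35 (adjusted p = 0.168 by limma, 0.0311 with the replicate block) and than in KO IP by 1.83 ± 0.35 (adjusted p = 0.0728 by limma, 0.00698 with the block). Its specific enrichment was 1.82 ± 0.50, with an even 1.72, 2.00 and 1.75 over the numbers, and did not pass (adjusted p = 1.0 by limma and 0.223 with the block).

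Taf8, a histone-fold partner of TAF10, had 7.13, 7.34 and 7.53 in WT IP, and 5.53, 6.59 and 6.18 in KO IP. Both of its inputs lay at 6.66 in preparation 1, and no input array was higher. WT IP exceeded KO IP by 1.23 ± 0.30 (adjusted p = 0.169 by limma, 0.0259 with the block), and its specific enrichment of 1.19 ± 0.42 did not pass. In specific enrichment all 10 tested subunits of this list had positive values, as did 55.8% of all genes tested, with a median of 0.59 against 0.05 over all genes, and 0 were called. In WT IP against WT input their median was 0.50 against -0.11 over all genes, with 0 called and 1, Tbp, with the block. The WT IP arrays lay above all 9 others for 3 of the 10, Tbp, Taf8 and Taf4 (named after its values were seen), beside 2.40% of all genes.

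The other general transcription factors (8 tested) had a median specific enrichment of 0.28, with Gtf2a2 (1.17 ± 1.23) and Gtf2e2 (0.75 ± 0.59) at the top and 0 called. The value of Gtf2a2 rested on 1 number, with 3.08, 0.06 and 0.39. RNA polymerase II subunits (11 tested) had a median of 0.09. Of these, Polr2c was higher in WT IP than in KO IP by 1.33 ± 0.34 (adjusted p = 0.232 by limma, 0.00526 with the block). Its difference of KO IP from KO input was -1.04 (adjusted p = 0.311 and, with the block, 0.0343), and its specific enrichment was 1.41 ± 0.48 (not called). Polr2h followed with 0.91 ± 0.80.

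SAGA, the coactivator that shares several TAFs with TFIID, had 14 tested subunits with a median specific enrichment of 0.22, led by Taf5l (0.65 ± 0.46) and Tada1 (0.53 ± 0.57), and 0 called. Taf5l, the paralogue of Taf5 in SAGA, was higher in WT IP than in WT input by 1.03 ± 0.32 (adjusted p = 0.269 by limma, 0.0437 with the block). The acetyltransferase gene Kat2a was lower in both precipitates than in their inputs, with -1.13 in WT (adjusted p = 0.313 by limma, 0.0240 with the block) and -0.94 in KO (0.403 and 0.0399). The same held for the polymerase subunit Polr2m, with -1.29 (0.269 and 0.0154) and -1.05 (0.368 and 0.0277).

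Of the 13 other cyclin-dependent kinases tested, 0 were called in specific enrichment with or without the block, and their median was 0.21. The highest were the Mediator kinases Cdk8 (0.85 ± 0.56) and Cdk19 (0.72 ± 0.39), against 2.30 for Cdk7. Cdk9, the kinase of the elongation factor P-TEFb, was lower in the precipitate of both genotypes, by -1.13 ± 0.32 in WT (adjusted p = 0.232 by limma, 0.0386 with the block) and -1.64 ± 0.32 in KO (0.145 and 0.0227). Over the 59 tested genes of these 6 lists, the WT IP arrays lay above all 9 others for 6, beside 2.40% of all genes. Apart from the 3 TFIID subunits, these were Taf5l, Cdk19 and the general transcription factor gene Tbpl1 (named after its values were seen). Of the 59 genes, 0 were called in any comparison without the block. With the block 2 were higher and 3 lower in WT IP against WT input (7.02% of all genes called), 4 were lower in KO IP against KO input (6.0%), 3 were higher in WT IP against KO IP (2.45%), and 0 passed in the other comparisons. With quantile normalization as well, all 4 calls in KO IP against KO input were lost (adjusted p by limma of 0.0998 for Polr2c, 0.0915 for Polr2m, 0.136 for Kat2a and 0.0715 for Cdk9). So were those of Cdk9 in WT IP against WT input (0.0768) and of Taf8 in WT IP against KO IP (0.0583).

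**Figure D4:**
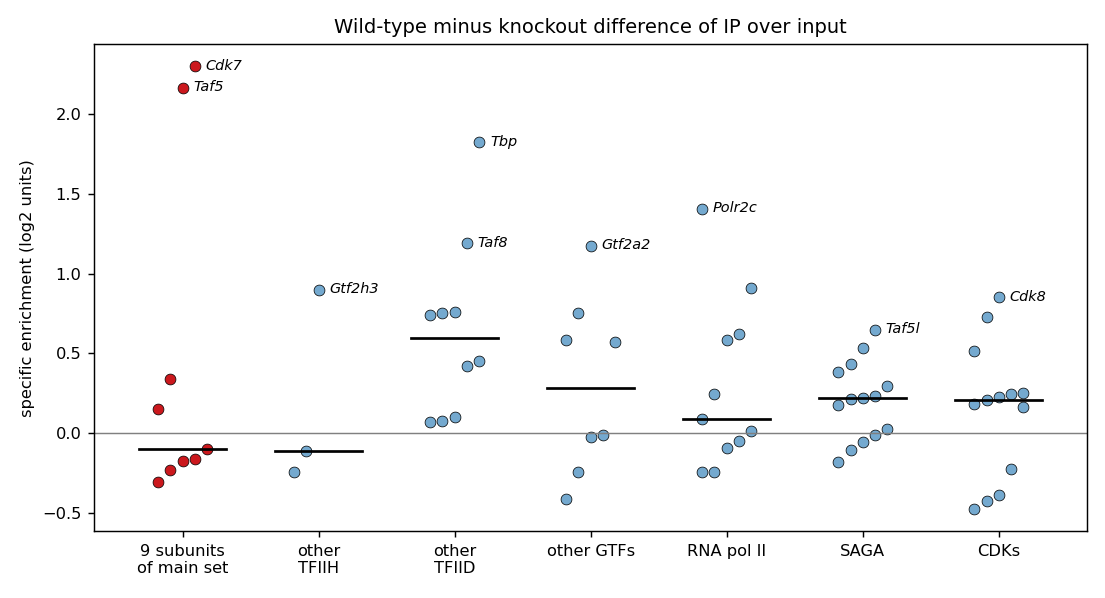
Specific enrichment (IP minus input in wild type, less that in knockout, log2 units) of each tested gene in the set of 9 (red) and in 6 lists of related genes (blue); horizontal bars are list medians. Cdk7 (2.30) and Taf5 (2.16) lie highest, followed by Tbp (1.82) and Polr2c (1.41), and the medians run from -0.11 to 0.59.

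Genes with clone names, such as those ending in Rik, were left out of the search for similar transcripts. Of the other genes tested, those whose levels over the 12 arrays most resembled Cdk7 were Fgf21 (Pearson r of 0.94), Slc51b (0.93), Flcn (0.92), Dhx35 (0.91) and Tec (0.91). For Taf5 they were Zfp809, Cdca7, Kdm4c and Rasa2 (0.96 each) and Zbtb43 (0.95). These 2 short lists shared no gene, and Cdk7 and Taf5 correlated with each other at 0.70. These values describe 12 arrays that share preparations and group means.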

How the data were processed

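The deposited values are log2 expression values, 1 per probe set and array, as their range shows; no source used here states the authors' background correction, normalization or summarisation. Array precision is limited by their number. The table holds 16539 probe sets, 15780 with 1 gene symbol, 0 with several, 695 unnamed and 64 controls. Genes with a mean at or above the 40th percentile (5.57) were tested. Differences were fitted with limma 3.58.1 in R 4.3.3 on all 12 arrays with the 4 group means and moderated variances (eBayes, 8 residual degrees of freedom), two-sided, with Benjamini-Hochberg adjustment over 9496 genes. SE and 95% intervals are those of this moderated fit, which does not pair each IP with its input, unless the block is named. In the comparisons that contain the wild-type IP they are not corrected for the choice of Cdk7 and Taf5. The limma script was tested on simulated data.

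Same-number arrays of different groups had correlations of deviations of 0.45 to 0.94 (18 pairs), and different numbers -0.75 to 0.07. Deviations cancel within a group, which by itself lowers the correlations between different numbers, so part of this gap is built in. Each IP shares its preparation with its input, per the series text. The replicate block took the preparation for IP against input and specific enrichment (4 residual degrees of freedom) and the number between genotypes (6). The members and lists were chosen with earlier results of these data known. Every member is named; from each other list, the 2 largest absolute specific enrichments are, and genes called with the block were added. Alternatives were quantile normalization, other filters, an intensity trend, fits of the compared groups alone and leaving out each array. Promoters came from RefSeq. Figures used Python 3.11.15 and matplotlib 3.10.9.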

Additional observations from a re-analysis of the deposited data

Results flagged for a closer look

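Cdk7 went in opposite directions in the genotypes, with a higher level in the IP in 3 of 3 wild-type preparations and a lower one in 3 of 3 knockout preparations. The knockout difference of -0.49 became -0.25 with quantile normalization, and the median of all genes there was -0.21. Its specific enrichment was 2.30 on the log2 scale. Cdk7 was chosen on this comparison, so no p-value is given for it. The calls of Cdk7 given for the different fits restate that choice.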

How the results depend on the processing

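Counts of the 9 genes called were as follows. In WT IP against WT input the count was 1. It became 3 with the replicate block and 3 with the number as a replicate block, and 2 with quantile normalization, with the block and quantile normalization (chosen after seeing the data) or with the filter at the 60th percentile. It became 0 with no filter or with the compared groups alone, and ranged from 0 to 1 with 1 array left out. In WT IP against KO IP the count of 1 became 2 with the block, with or without quantile normalization. It became 0 with the compared groups alone, and ranged from 0 to 1 with 1 array left out. Between genotypes the replicate block already takes the number, so the 2 blocks are the same fit there. In specific enrichment the count of 0 became 1 with the number as a replicate block. In the remaining comparisons it stayed at 0 in all 20 alternatives, which between the inputs include that same fit under both block names. Over these alternatives Cdk7 ranged from 1.61 to 2.02 in WT IP against WT input and from 2.10 to 2.51 in specific enrichment, and Taf5 from 2.55 to 3.42 and from 1.86 to 2.73.

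Uncalled differences near 0 changed sign. In KO IP against KO input, quantile normalization gave 0.12 for Ccnh, 0.14 for Mnat1 and 0.15 for Ercc3, with and without the block. With 1 array left out, that comparison ranged from -0.47 to 0.088 for Ccnh, -0.24 to 0.043 for Mnat1, -0.12 to 0.15 for Ercc2, -0.35 to 0.069 for Ercc3 and -0.10 to 0.29 for Taf6. KO input against WT input ranged from -0.12 to 0.30 for Mnat1, -0.032 to 0.36 for Gtf2h1, -0.15 to 0.051 for Ercc2, -0.14 to 0.22 for Ercc3, -0.15 to 0.43 for Taf5, -0.33 to 0.11 for Taf6 and -0.38 to 0.40 for Taf12. Specific enrichment of Gtf2a2 ranged from -0.17 to 2.05. The cause of these changes was not tested. Over all genes, the count called in WT IP against WT input went from 10 to 667 with the replicate block, 331 with quantile normalization as well, 16 with the latter alone, 1108 with the number as a block, 1 with the compared groups alone and 2 to 14 with 1 array left out. In KO IP against KO input it went from 0 to 570, 33 with quantile normalization as well, 1073 with the number as a block and 52 with no filter. In WT IP against KO IP it went from 24 to 233, 176 with quantile normalization as well, 0 with the compared groups alone and 4 to 16 with 1 array left out. In specific enrichment it went from 1 to 2, and to 27 with the number as a block. The means rest on 3 arrays a group, which limits the precision of each value.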
